A study of Mus musculus with 10 samples.

Results

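Cell division genes were taken as a fixed list of 48 genes, 24 of S phase and 24 of mitosis, out of 49671 gene IDs measured in whole mouse skin. All 48 were found in the counts by symbol through GENCODE M21, and all 48 passed the filter on low counts. The study compared 5 mice homozygous for the Npy allele of the strain B6;129S4-Npytm2Rpa/J (NPYtet; labelled 3 female and 2 male) with 5 wildtype siblings (WT; labelled 2 female and 3 male). All mice were 22 weeks old and shared the mixed B6 and 129S4 background, and the labels name no drug, diet or skin site. Each library is poly(A) RNA of the whole skin of 1 mouse, so epidermis, follicles, dermis, fat and muscle are measured together, and fewer dividing cells cannot be told apart from less RNA per dividing cell.

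During S phase a cell copies its DNA. The MCM proteins form the helicase that opens the helix, Pcna is the ring that holds the polymerases on the template, and the ribonucleotide reductase subunits Rrm1 and Rrm2 supply the building blocks. In mitosis the kinases Cdk1, Plk1, Aurka and Aurkb drive spindle assembly and chromosome separation, and Cdc20 starts the destruction of the mitotic cyclins. Both groups are transcribed in cycles: E2F factors activate many S phase genes, and the MuvB complex with B-Myb and FoxM1 activates many mitosis genes. In skin, dividing cells lie mainly in the basal epidermis and in the matrix of growing hair follicles, so these transcripts change with the hair cycle and with the thickening of wounded or inflamed epidermis.

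Total counts ran from 23209405 to 53357695 reads a library. Npy was at 96.2, 245, 166, 129.6 and 485 CPM in NPYtet libraries 1 to 5, against 1.39, 2.86, 0.0940, 1.32 and 2.17 CPM in WT libraries 1 to 5 (CPM, read counts scaled to library size), so each library followed its genotype label. NPYtet 5 had 9.26% of its reads in mitochondrial genes, against 1.86% to 3.03% in the other 9 libraries. Reads at the ribosomal RNA locus made up 4.70% in NPYtet 5 and 1.82% in WT 2, and at most 0.443% elsewhere. NPYtet 1 is labelled female but held 2 reads of Xist and 1513 reads of the Y-linked gene Ddx3y. Every comparison by sex and every fit with a sex term below used the label, and none took NPYtet 1 as male. Libraries also differed in how counts followed base composition, which is given with the members below.

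The 2 groups of members differ in the letters around their start sites. RefSeq promoter windows (GRCm38.p6, 250 bases before to 50 after each start) were matched by symbol for 40 of the 48 members, 20 of each group, in 43 windows. The E2F site was searched as TTTCCCGC, TTTGGCGC, TTTCGCGC or TTTGCCGC, the cell cycle homology region (CHR, contacted by the MuvB complex) as TTTGAA or TTCGAA, and the CCAAT box (bound by NF-Y) as CCAAT, each on both strands. An E2F match was found in 8 of 20 S phase genes (40%) and 1 of 20 mitosis genes (5%), against 2.6% of the 27025 genes with a window. A CHR match was found in 3 of 20 S phase genes (15%) and 16 of 20 mitosis genes (80%), against 21.7% of all genes. A CCAAT match was found in 13 of 20 S phase genes (65%) and 18 of 20 mitosis genes (90%), against 41.1% of all genes. Some of these genes hold their match only after the start, such as Plk1, Aurka and Bub1 for the CHR and Cdt1 for the E2F site. Of 116 matches in the members, 4 overlapped a match of another motif. These matches are letters in a window and were not tested for binding.

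The S phase genes with an E2F match were Cdc6, Cdt1, Mcm3, Mcm5, Mcm6, Mcm7, Pola1 and Uhrf1. Cdk1 was the 1 mitosis gene with such a match. The bases before the start of 3 helicase subunits are shown, Mcm5 and Mcm6 for their E2F and CCAAT letters and Mcm3 for its CCAAT letters alone, with every full match in capitals, 5′ to 3′ along the gene's strand. They end at the base before the RefSeq start and lie at chr8:75109359-75109508 (forward strand), chr1:128359706-128359855 (reverse strand) and chr1:20820313-20820462 (reverse strand). Mcm6 was added after its matches were seen. Mcm7 met the rule for printing but is left out because all 150 bases of its stretch lie in an exon.
Mcm5: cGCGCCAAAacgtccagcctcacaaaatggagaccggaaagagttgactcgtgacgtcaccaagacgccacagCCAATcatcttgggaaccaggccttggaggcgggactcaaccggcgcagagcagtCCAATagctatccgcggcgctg
Mcm6: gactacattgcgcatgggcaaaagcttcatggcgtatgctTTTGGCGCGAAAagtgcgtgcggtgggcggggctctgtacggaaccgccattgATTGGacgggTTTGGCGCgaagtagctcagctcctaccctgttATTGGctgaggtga
Mcm3: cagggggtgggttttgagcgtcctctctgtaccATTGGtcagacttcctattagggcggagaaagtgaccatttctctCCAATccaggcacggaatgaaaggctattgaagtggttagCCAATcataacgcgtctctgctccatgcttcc
In Mcm6 the capital run TTTGGCGCGAAA holds 2 E2F matches, 1 on each strand. Mcm3 shows 3 CCAAT matches here, and its 2 E2F matches lie after the start.

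The stretches before 5 mitosis genes are shown, Cdk1, Cdc20, Top2a and Kif11 for a CCAAT box paired with a CHR, and Ccnb2 for its CCAAT boxes alone. They lie at chr10:69352913-69353062 (reverse strand), chr4:118437344-118437423 (reverse strand), chr11:99024190-99024269 (reverse strand), chr19:37376302-37376381 (forward strand) and chr9:70421555-70421704 (reverse strand). Those of Cdc20, Top2a and Kif11 were added after their matches were seen, being mitosis genes with a CHR match in the last 80 bases before the start. Ube2c and Prc1 also have such a match (23 and 27 bases after a CCAAT box), and Cdca8 met the rule for printing. These 3 are left out because more than 30 bases of each stretch lie in exons, against 26 in Cdk1, 9 in Cdc20 and 0 in the others printed.
Cdk1: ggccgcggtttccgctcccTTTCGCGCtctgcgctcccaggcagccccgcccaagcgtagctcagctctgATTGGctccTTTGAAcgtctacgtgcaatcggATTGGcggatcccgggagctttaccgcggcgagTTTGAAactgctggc
Cdc20: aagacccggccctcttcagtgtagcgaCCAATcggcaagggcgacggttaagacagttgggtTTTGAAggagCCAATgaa
Top2a: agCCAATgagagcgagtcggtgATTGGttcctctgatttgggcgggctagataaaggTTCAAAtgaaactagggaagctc
Kif11: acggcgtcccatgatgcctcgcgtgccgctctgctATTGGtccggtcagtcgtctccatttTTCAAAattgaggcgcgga
Ccnb2: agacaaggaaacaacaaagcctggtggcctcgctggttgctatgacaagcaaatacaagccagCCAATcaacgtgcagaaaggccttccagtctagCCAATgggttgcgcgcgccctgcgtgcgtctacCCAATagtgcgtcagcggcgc
Between the CHR nearest the start and the closest CCAAT box before it lie 28 bases in Cdk1, 30 in Cdc20, 30 in Top2a and 21 in Kif11. Ccnb2 shows 3 CCAAT matches here and none of its CHR letters, which lie farther upstream and after the start. Cdk1 alone among the printed sequences holds all 3 motifs.

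**Figure D1:**
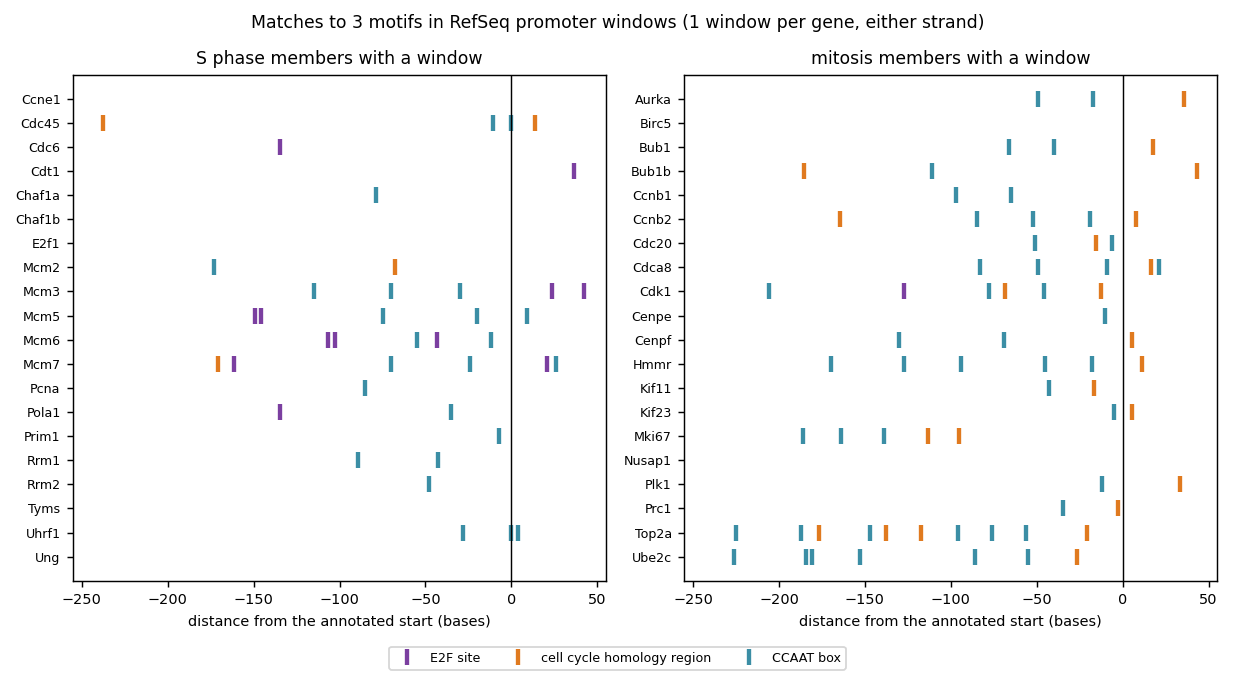
Positions of matches to the E2F site, the cell cycle homology region and the CCAAT box in the promoter windows of 20 S phase genes (left) and 20 mitosis genes (right), 1 window per gene, with the distance from the annotated start in bases on the x axis. On the left, E2F matches appear in Cdc6, Cdt1, Mcm3, Mcm5, Mcm6, Mcm7 and Pola1. That of Uhrf1 lies in another window of the gene, which is not drawn. On the right, an E2F match appears in Cdk1 and homology region matches in 16 genes.

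Levels per length were computed as TPM, read counts scaled to gene length and library size, from the merged exons of each gene. Pcna, the polymerase clamp, had the highest level, at 94.6 ± 43.7 TPM in NPYtet and 116 ± 40.7 TPM in WT (SD, n = 5 each). Cdc20 followed at 34.9 ± 16.8 TPM in NPYtet and 55.96 ± 17.9 TPM in WT, then Mcm5 at 25.96 ± 24.7 TPM in NPYtet and 54.3 ± 19.4 TPM in WT and Mcm7 at 27.6 ± 16.1 TPM in NPYtet and 45.8 ± 13.3 TPM in WT. Rrm2, the regulated subunit of ribonucleotide reductase, was at 25.1 ± 19.4 TPM in NPYtet and 37.7 ± 26.3 TPM in WT, and Mcm6 at 25.6 ± 17.5 TPM in NPYtet and 36.3 ± 20.1 TPM in WT. The mitotic cyclin Ccnb2 was at 19.8 ± 9.69 TPM in NPYtet and 37.6 ± 26.7 TPM in WT. Cenpf and Cenpe, large proteins of the kinetochore, were the lowest, at 1.52 ± 1.21 TPM in NPYtet and 3.28 ± 3.23 TPM in WT for Cenpf, and 1.51 ± 1.21 TPM in NPYtet and 3.81 ± 4.38 TPM in WT for Cenpe. Below Pcna, neighbours in the order of these 6 genes down to Ccnb2 differed by less than the SD of either group.

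The spread over libraries, taken as a ratio of CPM, was wider for mitosis genes. The ratio of the highest to the lowest library in CPM had a median of 10.1 over the 24 mitosis genes and 4.46 over the 24 S phase genes. It ran from 1.84 for Pcna to 74.2 for Mki67, a protein that coats mitotic chromosomes and is widely used as a stain for dividing cells. Some lowest values rest on few reads, such as 13 of Kif20a and 22 of Prc1 in WT 2 and 33 of Cenpe in NPYtet 1. Among S phase genes, Cdc6 had 32 in NPYtet 5. WT 1 held the highest CPM of 22 mitosis genes and 9 S phase genes. WT 2 held the highest CPM of 9 S phase genes and the lowest of 9 mitosis genes. Within NPYtet, NPYtet 2 was the highest library for 21 S phase genes and 16 mitosis genes.

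The main comparison was NPYtet against WT with sex as labelled in the fit. All 48 members had a negative log2 fold change (NPYtet minus WT), but none passed the edgeR quasi-likelihood test over the 18060 genes tested (smallest adjusted p = 0.999), where 0.00554% of genes passed, namely Npy alone. The median log2 fold change was -0.62 over the S phase genes, which ran from -1.18 to -0.19, and -0.95 over the mitosis genes, from -1.22 to -0.61. Over all genes tested the median was -0.01, with 9247 negative. At an unadjusted p under 0.05 there were 7 S phase genes and 12 mitosis genes, all negative, among 386 negative genes (2.14% of those tested) and 263 positive ones. DESeq2 and limma voom also called 0 members. With no filter on low counts edgeR called 1 member, Mki67, among 409 genes (1.24% of those tested). The medians moved to -0.34 for S phase and -0.54 for mitosis without WT 1, and to -0.98 and -1.31 without NPYtet 2. CPM overlapped between the groups for every member, while 0.216% of genes tested had every NPYtet library below every WT library.

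Among S phase genes, Uhrf1, which carries DNA methylation through replication, had the most negative log2 fold change (ENSMUSG00000001228, chromosome 17, 56303321 to 56323486, forward strand, mm10). Uhrf1 was at 22.9, 60.6, 10.2, 13.97 and 15.9 CPM in NPYtet libraries 1 to 5, against 75.4, 74.8, 20.7, 63.4 and 55.5 CPM in WT libraries 1 to 5. It averaged 24.7 ± 20.6 CPM in NPYtet and 57.9 ± 22.4 CPM in WT (SD, n = 5 each), and its log2 fold change was -1.18 (SE 0.43). NPYtet 2 lay among the WT libraries, and WT 3 among the NPYtet libraries. The same 2 libraries crossed over in the helicase subunit Mcm5 (ENSMUSG00000005410, chromosome 8, 75109569 to 75128439, forward strand), which was at 29.5, 94.1, 16.8, 16.8 and 54.3 CPM in NPYtet libraries 1 to 5, against 73.01, 222, 28.1, 67.04 and 110.5 CPM in WT libraries 1 to 5. For Mcm5 the log2 fold change was -1.05 (SE 0.38), and WT 2 was far above the other 9 libraries. Chaf1a, a subunit of the chromatin assembly factor that places histones on new DNA (ENSMUSG00000002835, chromosome 17, 56040439 to 56072289, forward strand), was at 4.52, 15.9, 5.67, 6.85 and 3.77 CPM in NPYtet libraries 1 to 5, against 17.8, 23.95, 7.15, 16.6 and 17.8 CPM in WT libraries 1 to 5. Its log2 fold change was -1.05 (SE 0.40). Exons of other genes cover 52.5% of the exon bases of Chaf1a, so its reads are uncertain.

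Mcm7 (ENSMUSG00000029730, chromosome 5, 138164583 to 138172422, reverse strand) was at 43.7, 76.8, 31.9, 35.2 and 35.5 CPM in NPYtet libraries 1 to 5, against 88.9, 122, 40.8, 72.5 and 90.998 CPM in WT libraries 1 to 5. Its log2 fold change was -0.79 (SE 0.32), and 12.6% of its exon bases are shared with other genes. Mcm3 (ENSMUSG00000041859, chromosome 1, 20802968 to 20820312, reverse strand) was at 12.96, 55.2, 16.1, 17.98 and 10.7 CPM in NPYtet libraries 1 to 5, against 49.5, 60.4, 20.97, 46.2 and 63.2 CPM in WT libraries 1 to 5. Here NPYtet 2 was within the WT range and WT 3 stood apart from the other WT libraries, with a log2 fold change of -0.97 (SE 0.40). Pcna (ENSMUSG00000027342, chromosome 2, 132249162 to 132253314, reverse strand) was at 76.6, 126, 68.4, 68.3 and 101 CPM in NPYtet libraries 1 to 5, against 123, 105, 73.97, 113 and 119.7 CPM in WT libraries 1 to 5. Pcna averaged 88.02 ± 24.9 CPM in NPYtet and 107 ± 19.5 CPM in WT (SD, n = 5 each), with -0.23 (SE 0.25) as its log2 fold change. NPYtet 2 had the most Pcna of all 10 libraries. The adjusted p by edgeR was 0.999 for each of these 6 genes.

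Among mitosis genes the smallest unadjusted p belonged to Plk1, a kinase of mitotic entry, centrosomes and the spindle (ENSMUSG00000030867, chromosome 7, 122159439 to 122169873, forward strand). Plk1 was at 9.07, 15.7, 6.11, 7.85 and 9.99 CPM in NPYtet libraries 1 to 5, against 27.6, 33.05, 10.9, 19.3 and 18.02 CPM in WT libraries 1 to 5. It averaged 9.74 ± 3.61 CPM in NPYtet and 21.8 ± 8.64 CPM in WT (SD, n = 5 each), and the log2 fold change was -1.098 (SE 0.34); NPYtet 2 and WT 3 were the libraries in which the groups met. Cdca8, the borealin subunit of the chromosomal passenger complex (ENSMUSG00000028873, chromosome 4, 124918465 to 124939311, reverse strand), was at 11.5, 23.8, 11.9, 11.3 and 8.14 CPM in NPYtet libraries 1 to 5, against 37.4, 26.1, 17.9, 28.5 and 25.9 CPM in WT libraries 1 to 5. Its log2 fold change was -1.001 (SE 0.33), and NPYtet 2 alone of the NPYtet libraries was above WT 3. Cdk1, the kinase that starts mitosis (ENSMUSG00000019942, chromosome 10, 69335146 to 69352938, reverse strand), was at 14.2, 30.3, 10.8, 10.03 and 12.2 CPM in NPYtet libraries 1 to 5, against 39.3, 26.4, 18.03, 32.03 and 31.1 CPM in WT libraries 1 to 5. The log2 fold change of Cdk1 was -0.89 (SE 0.34), with 4 NPYtet libraries below every WT library.

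Cdc20, the activator of the anaphase-promoting complex (ENSMUSG00000006398, chromosome 4, 118432901 to 118437352, reverse strand), was at 25.7, 34.5, 18.7, 20.4 and 21.6 CPM in NPYtet libraries 1 to 5, against 50.6, 63.6, 26.2, 34.9 and 36.2 CPM in WT libraries 1 to 5. Its log2 fold change was -0.75 (SE 0.30), with NPYtet 2 within the WT range. Aurka, the kinase of the spindle poles (ENSMUSG00000027496, chromosome 2, 172356190 to 172370535, reverse strand), was at 7.13, 13.7, 7.98, 7.098 and 4.57 CPM in NPYtet libraries 1 to 5, against 19.7, 14.5, 10.2, 14.6 and 13.8 CPM in WT libraries 1 to 5. Its log2 fold change was -0.83 (SE 0.34). Ccnb2 (ENSMUSG00000032218, chromosome 9, 70407692 to 70421547, reverse strand) was at 10.3, 15.4, 9.85, 10.7 and 7.81 CPM in NPYtet libraries 1 to 5, against 35.7, 6.98, 15.8, 26.2 and 13.9 CPM in WT libraries 1 to 5. Ccnb2 spread widely within WT, where WT 1 was highest and WT 2 below every NPYtet library, and its log2 fold change was -0.88 (SE 0.39). The adjusted p by edgeR was 0.999 for each of these 6 genes.

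**Figure D2:**
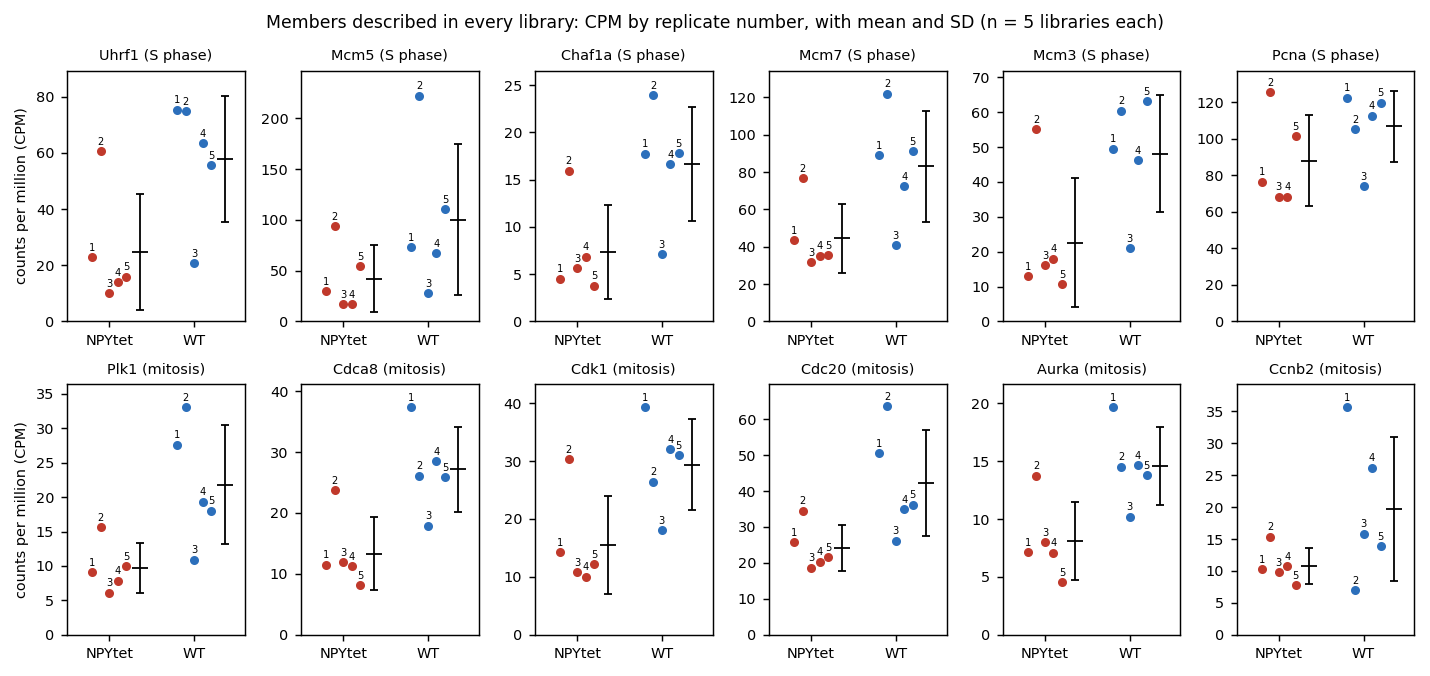
CPM of 12 members in each library, NPYtet in red and WT in blue, with the replicate number above each point and the mean with SD (n = 5) as a black bar, S phase genes above and mitosis genes below. NPYtet 2 is the highest NPYtet library in all 12 panels, and WT 3 the lowest WT library in each except that of Ccnb2.

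Over the whole list, all 5 NPYtet libraries were below the WT median in CPM for 17 of 24 mitosis genes and 6 of 24 S phase genes, and 4 of 5 were below it for the other 7 mitosis genes and 15 S phase genes. Exons of other genes cover over 5% of the exon bases of 10 members, among them Gins2 (67.3%), Kif20a (29.3%) and Ccne2 (17.4%), whose reads are likewise uncertain. Of the cyclins, Ccna2 of S phase and mitosis was at -0.93 (SE 0.39) in log2 fold change, Ccnb1 at -0.65 (SE 0.42), and the G1 to S cyclins Ccne1 and Ccne2 at -0.94 (SE 0.42) and -0.38 (SE 0.40). Of the kinesin motors, Kif11 was at -1.18 (SE 0.53), Kif20a at -0.86 (SE 0.60) and Kif23 at -0.61 (SE 0.56). Bub1, a kinase of the spindle checkpoint, was the most negative of all 48 at -1.22 (SE 0.57). The members nearest 0 were E2f1, a transcription factor of S phase genes, at -0.19 (SE 0.33), and Pola1, the catalytic subunit of DNA polymerase alpha, at -0.20 (SE 0.33).

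Further genes of the cycle showed a like spread of values. Of 40 other replication genes 36 were negative (median -0.51), and of 48 other mitosis genes 45 were negative (median -0.76), with 0 called in either by edgeR. At an unadjusted p under 0.05 there were 5 and 15 of them, all negative, where 2.14% of genes tested were negative at that p. Ncapd2, a condensin subunit, was at -1.05 (SE 0.31) and Tk1, thymidine kinase, at -1.04 (SE 0.33). Lig1, which joins the fragments of the lagging strand, was at -1.07 (SE 0.38), and the kinesin Kif22 at -1.03 (SE 0.33). Of 10 cyclins and kinases of G1 and their activators 8 were negative (median -0.44), with Ccnd1 at -0.76 (SE 0.36). Mycn, a transcription factor that drives growth, was at 2.83, 5.34, 3.53, 3.27 and 4.96 CPM in NPYtet libraries 1 to 5, against 42.2, 10.8, 5.502, 36.1 and 6.92 CPM in WT libraries 1 to 5. Its log2 fold change was -2.35 (SE 0.55) (edgeR adjusted p = 0.833), and WT 1 and WT 4 stood above the other 8 libraries. Of 20 brakes of the cycle 15 were negative, with a median of -0.10 and 0 called, 0 of them at an unadjusted p under 0.05. Cdkn2a, the locus of p16 and p19Arf, was at -0.98 (SE 0.55), and Btg2, an antiproliferative gene, at -0.41 (SE 0.34).

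**Figure D3:**
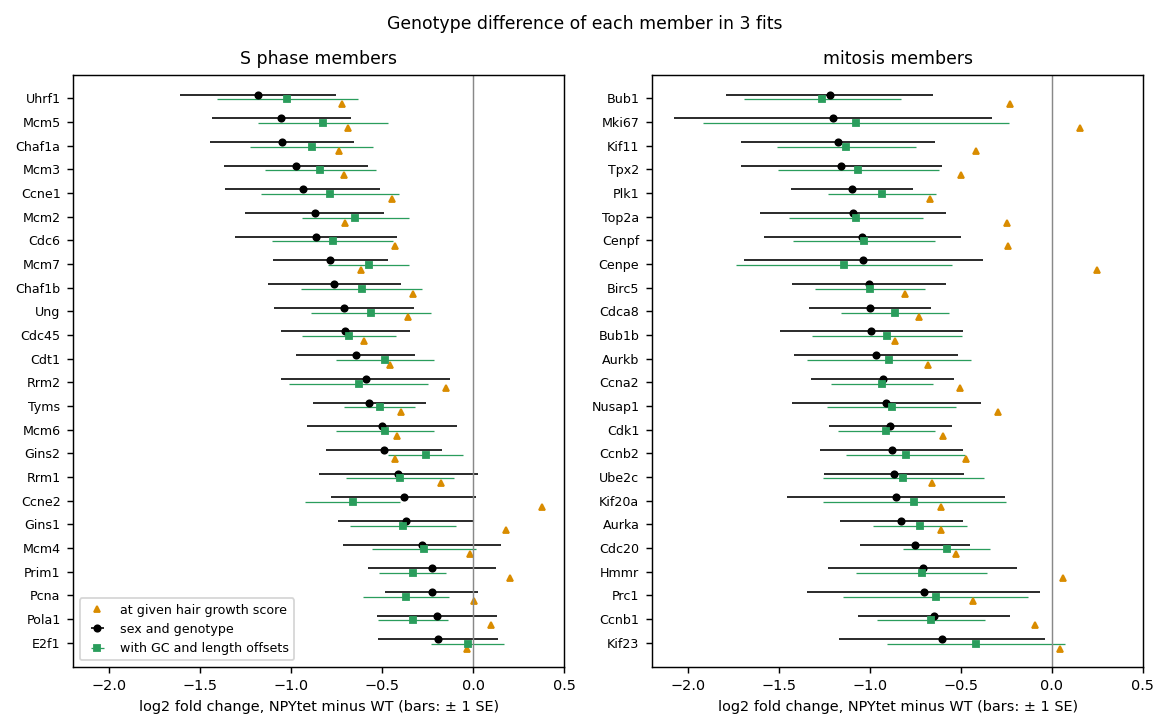
Log2 fold change (NPYtet minus WT, x axis) of the 24 S phase genes (left) and 24 mitosis genes (right), in the fit of sex and genotype (black circles, ± 1 SE), with GC and length offsets (green squares, ± 1 SE) and at given hair growth score (orange triangles, SE not drawn). The black and green points are negative for all 48 genes, and 9 orange points lie at or above 0.

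The libraries differed in base composition. Over all genes of at least 1 CPM, the median log2 CPM of the GC-richest bin minus that of the GC-poorest bin, after centring each gene and dividing genes into 6 bins of equal size, was 0.02, 0.01, -0.61, -0.79 and 0.26 in NPYtet libraries 1 to 5, against -0.74, 2.18, -0.52, -0.76 and 0.92 in WT libraries 1 to 5. WT 2 and WT 5 were thus relatively rich in GC-rich transcripts, and NPYtet 3, NPYtet 4, WT 1, WT 3 and WT 4 in GC-poor ones. The transcripts of S phase genes had a median GC content of 50.7%, against 47.0% for mitosis genes and 49.98% for all genes tested. Mki67 had the widest range of the members, at 2.07, 7.35, 28.99, 39.8 and 20.2 CPM in NPYtet libraries 1 to 5, against 153, 9.15, 39.6, 39.3 and 4.42 CPM in WT libraries 1 to 5. Cdk1 varied much less, so the ratio of Mki67 to Cdk1, chosen after its values were seen, was 0.145, 0.242, 2.67, 3.97 and 1.65 in NPYtet libraries 1 to 5 and 3.91, 0.346, 2.197, 1.23 and 0.142 in WT libraries 1 to 5. In Cenpe, Cenpf, Hmmr, Nusap1 and Kif23, likewise chosen after their values were seen, NPYtet 1, WT 2 and WT 5 were each among the 4 lowest libraries, as they were for Mki67.

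Offsets that remove the trend with GC content and length in each library were fitted as an alternative chosen after seeing the data. With them all 48 members stayed negative, with medians of -0.57 for S phase and -0.90 for mitosis, and edgeR called 0 (smallest adjusted p = 0.895). The counts at an unadjusted p under 0.05 were 10 and 16, all negative, among 439 negative genes (2.43% of those tested) and 518 positive ones. Members above and at or below the median GC content of the list (47.8%) gave medians of -0.82 and -0.37 for S phase, and -0.92 and -0.97 for mitosis, in the fit without offsets. For a score, log2 CPM was centred on its mean over the 10 libraries gene by gene, and then averaged over the genes of the list. Among the 5 libraries with a negative GC trend (2 NPYtet, 3 WT), the mean score of NPYtet minus WT was -1.01 for S phase and -1.17 for mitosis. Among the 5 with a positive trend (3 NPYtet, 2 WT) it was -0.56 for S phase and 0.10 for mitosis, which changed sign. With GC and length offsets the same 5 libraries gave -0.55 and -0.20, and the 5 with a negative trend -0.99 and -1.15. These splits were made after seeing the data, hold 2 or 3 libraries a genotype and were not tested, and the trends of NPYtet 1 and NPYtet 2 (0.02 and 0.01) lie near 0.

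**Figure D4:**
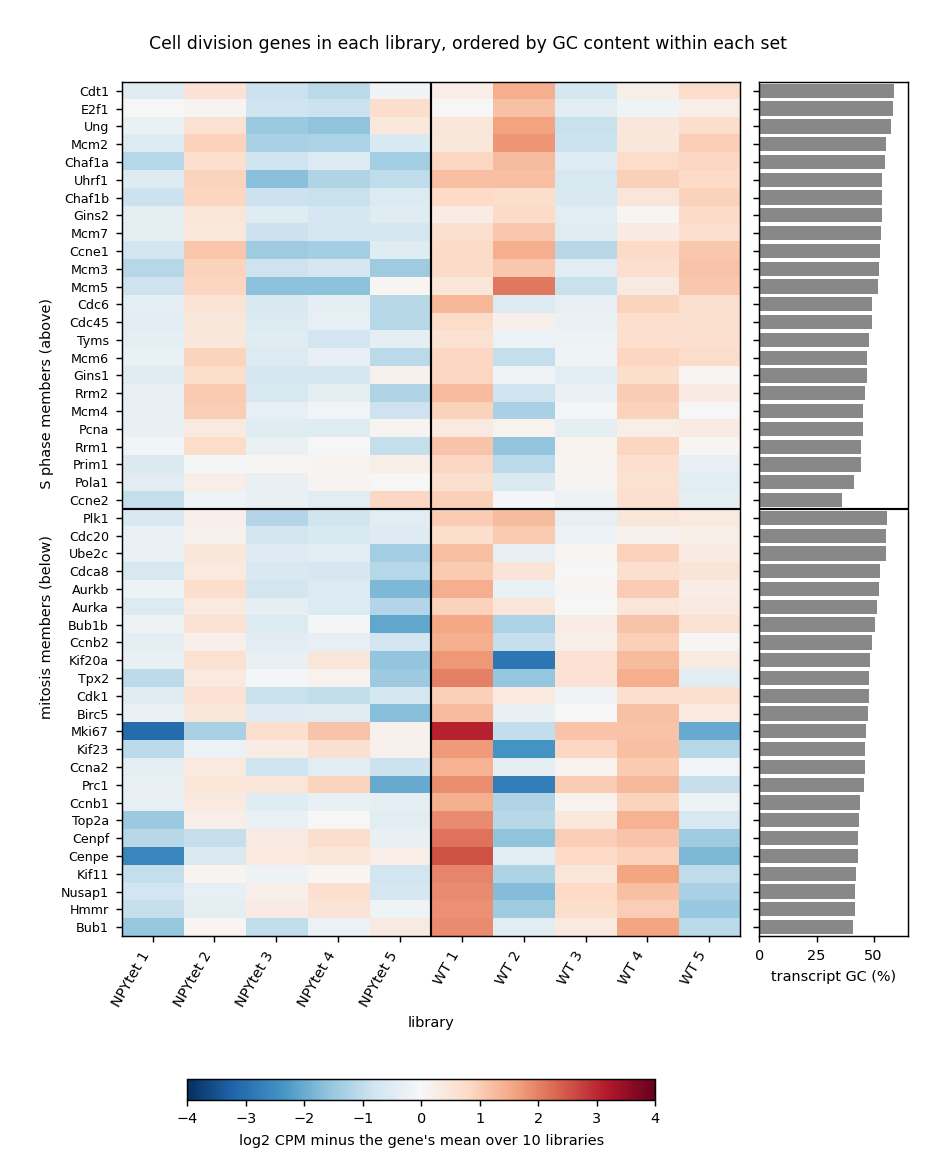
Centred log2 CPM of the 48 members in each library (NPYtet left, WT right), S phase genes above and mitosis genes below, each ordered from the highest to the lowest transcript GC content, which is drawn as bars on the right. WT 1 holds the highest value of 31 genes, NPYtet 2 is the highest NPYtet library for 37 genes, and WT 2 is the highest library for 9 S phase genes and the lowest for 9 mitosis genes.

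The S phase score was -0.51, 0.61, -0.75, -0.67 and -0.46 in NPYtet libraries 1 to 5, against 0.73, 0.36, -0.41, 0.59 and 0.51 in WT libraries 1 to 5. The mitosis score was -0.82, 0.13, -0.29, -0.03 and -0.81 in NPYtet libraries 1 to 5, against 1.62, -0.81, 0.37, 1.03 and -0.39 in WT libraries 1 to 5. S phase scores took both signs, positive in NPYtet 2, WT 1, WT 2, WT 4 and WT 5, and negative in the other 5 libraries. Mitosis scores split differently, with WT 2 and WT 5 below 0 and NPYtet 1, NPYtet 5 and WT 2 lowest. The mitosis score minus the S phase score was -0.31, -0.48, 0.47, 0.64 and -0.35 in NPYtet libraries 1 to 5, against 0.89, -1.18, 0.79, 0.44 and -0.90 in WT libraries 1 to 5. Its mean was -0.00774 ± 0.521 in NPYtet and 0.00774 ± 0.976 in WT (SD, n = 5 each), so the gap between the 2 sets of genes did not separate the genotypes. With GC and length offsets its range narrowed to between -0.74 and 0.77. Members took 0.0304% to 0.0990% of reads in NPYtet and 0.0541% to 0.116% in WT for S phase, and 0.0137% to 0.0408% in NPYtet and 0.0199% to 0.124% in WT for mitosis.

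Hair growth was measured as the score of 20 keratin and trichohyalin genes of the hair shaft and inner root sheath (Krt85 was not analysed here). It was -6.88, 0.25, -3.38, -4.94 and 3.53 in NPYtet libraries 1 to 5, against 4.05, 4.25, -3.14, 3.68 and 2.58 in WT libraries 1 to 5. NPYtet 5 thus lay with 4 of the WT libraries, and WT 3 with 3 NPYtet libraries. The transcription factor Hoxc13 of the hair matrix was at 9.22, 14.6, 10.4, 6.71 and 40.1 CPM in NPYtet libraries 1 to 5, against 127, 59.3, 9.52, 112 and 50.8 CPM in WT libraries 1 to 5. In NPYtet 5 the hair score was high, while its S phase score (-0.46) and mitosis score (-0.81) were low. In WT 2 the hair score was the highest of all, while its mitosis score was -0.81. With GC and length offsets the hair score of WT 2 was 3.47, below WT 1 (4.20) and WT 4 (3.93). Its mitosis score was then -0.23. NPYtet 5 had a hair score of 3.40 and a mitosis score of -0.56 with these offsets. NPYtet 5 and WT 2 also had the fewest genes with a read (19953 and 21144, against 24710 to 26323 elsewhere). Their trends with transcript length, longest bin minus shortest as for GC content, were -1.01 and -1.22, against -0.36 to 0.56 elsewhere. The part of these traits in the scores of the 2 libraries was not tested.

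At given sex and genotype all 48 members had a positive slope on the hair score, but none passed the edgeR test, where 1.07% of genes passed in that direction (194 genes, 19 of them genes of the score itself). The median slope was 0.06 log2 units per unit of score for S phase and 0.09 for mitosis, against -0.00300 over all genes. At an unadjusted p under 0.05 there were 1 S phase gene, Ccne2 at 0.21 (SE 0.07), and 3 mitosis genes, Mki67 at 0.39 (SE 0.14), Cenpe at 0.36 (SE 0.12) and Bub1 at 0.25 (SE 0.11), where 3.34% of genes had a positive slope at that p. DESeq2 also called 0 members. The direction rested on WT 1: without it the medians were -0.17 for S phase and -0.13 for mitosis. They were 0.124 and 0.162 without NPYtet 5, and the S phase median was 0.0330 without WT 3. At given hair score the genotype log2 fold change was negative for 19 of 24 S phase genes (median -0.41) and 20 of 24 mitosis genes (median -0.49). Of these members edgeR called 0, and 0 had an unadjusted p under 0.05. Over all 18060 genes tested, 60 negative and 487 positive ones had that p in this fit. Pcna was then at 0.00298, and Mki67 at 0.15 (SE 0.74). The hair score averaged -2.28 ± 4.17 in NPYtet and 2.28 ± 3.10 in WT (SD, n = 5 each), and how far it and genotype each carry these values cannot be told apart.

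The stress keratins Krt6a, Krt6b, Krt16 and Krt17 are made by wounded and inflamed epidermis and by parts of the follicle. Their score was -1.48, 3.58, -3.32, -3.497 and 0.64 in NPYtet libraries 1 to 5, against -2.95, 4.76, -2.68, 1.47 and 3.47 in WT libraries 1 to 5. The highest libraries were NPYtet 2, WT 2 and WT 5. At given sex and genotype 17 of 24 S phase genes had a positive slope on this score (median 0.13), and 15 of 24 mitosis genes a negative one (median -0.22). Cenpf passed the edgeR test, with a slope of -0.69 (SE 0.17) (edgeR adjusted p = 0.0460), and it was the 1 of 48 members to pass, where 4.03% of genes passed with a negative slope and 2.09% with a positive one. Cenpf was at 4.03, 4.61, 11.2, 14.2 and 7.08 CPM in NPYtet libraries 1 to 5, against 39.6, 2.802, 17.3, 19.2 and 3.21 CPM in WT libraries 1 to 5. The 3 libraries with the highest stress scores, NPYtet 2, WT 2 and WT 5, had 4.61 CPM of it or less. So did NPYtet 1 (4.03 CPM), whose stress score was -1.48.

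These slopes followed base composition. Over the 48 members the slope correlated with transcript GC content at Spearman's rho = 0.84, a description across genes that share the same 10 libraries. GC-rich S phase genes such as Mcm2 (GC content 55.5%, slope 0.39 (SE 0.12)) were at one end and Mki67 (46.6%, slope -0.87 (SE 0.27)) at the other. Mki67 lay near the median GC content of the list (47.8%). Its slope was -0.88 (SE 0.32) with GC and length offsets, and that of Mcm2 was 0.26 (SE 0.13). With GC and length offsets, chosen after seeing the data, rho was 0.39 over all members, 0.09 within S phase and 0.62 within mitosis (0.80 in each without offsets). Cenpf was then at -0.46 (SE 0.15) (edgeR adjusted p = 0.125), and 0 members were called, where 0.969% of genes tested passed. Then 22 of 24 S phase genes were positive (median 0.13) and 13 of 24 mitosis genes negative (median -0.10). Fits without 1 library called 0 to 12 members, with 12 (25%) without NPYtet 2, where 13.2% of genes tested passed, and 6 (12.5%) without NPYtet 5, where 22.8% did. Without any other library 0 members were called, but there only 0% to 1.21% of genes tested passed. The S phase median was 0.0240 without NPYtet 2 and 0.0206 without NPYtet 5, and was 0.237 without WT 2. The mitosis median was -0.468 without NPYtet 2, -0.487 without NPYtet 5, 0.0288 without WT 2 and -0.0346 without WT 4. At given stress score all 48 members kept a negative genotype log2 fold change, with medians of -0.59 for S phase and -0.95 for mitosis and 0 called by edgeR.

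**Figure D5:**
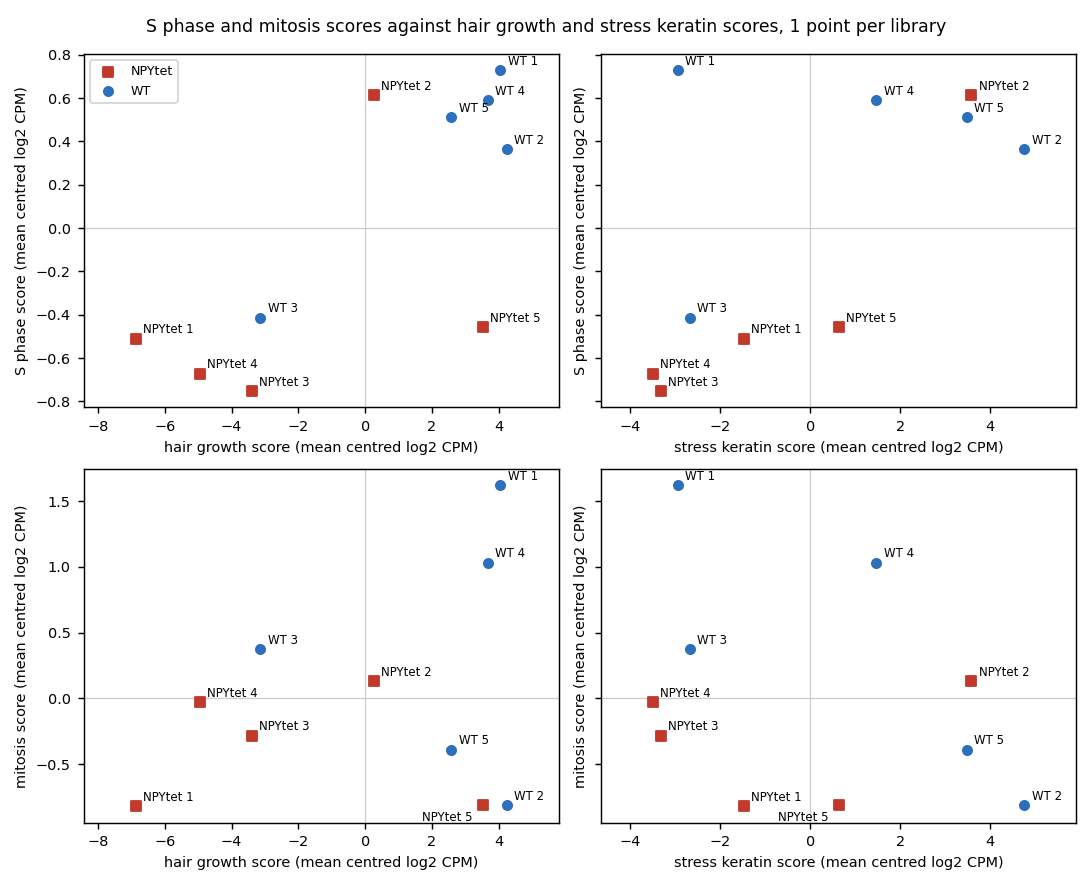
S phase score (upper row) and mitosis score (lower row) of each library against its hair growth score (left) and stress keratin score (right), all as mean centred log2 CPM, with NPYtet as red squares and WT as blue circles. NPYtet 2 sits with 4 WT libraries at high S phase score, and NPYtet 5 and WT 2 combine a high hair score with a mitosis score of -0.81. The scores shown are without GC and length offsets.

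Sex was compared as labelled, male minus female, in the same fit. S phase genes were positive in 21 of 24 (median 0.55) and mitosis genes negative in 18 of 24 (median -0.27), against a median of -0.07 over all genes. Mcm5 was the 1 member called, at 1.61 (SE 0.39) (edgeR adjusted p = 0.0450), where 2.48% of genes tested passed. Libraries labelled male had 54.3 to 222 CPM of Mcm5 and those labelled female 16.8 to 73.01 CPM, so the sexes overlapped. Base composition moved with sex: the 4 libraries with 14149 to 20177 reads of Xist all had a negative GC trend, and of the other 6 libraries WT 4 alone did. The difference between sexes correlated with transcript GC content at Spearman's rho = 0.65 over the 48 members, again a description across genes of the same libraries. With GC and length offsets 23 of 24 S phase genes were positive (median 0.56) and 15 of 24 mitosis genes negative (median -0.17). With the offsets Mcm5 was at 1.72 (SE 0.36) and Tyms, which makes thymidylate, at 0.77 (SE 0.20). Both were past the edgeR threshold (adjusted p = 0.0268 and 0.0429), which is 4.17% of members where 6.79% of genes passed. Without NPYtet 5 and WT 2, chosen after seeing the data, 0 members were called, where 3.64% of genes passed. Without 1 library at a time 0 to 7 were called. The 7 were called without WT 4 (14.6%), where 14.9% of genes passed. No member was called by edgeR without any 1 of NPYtet 2, 3, 4 or 5 or WT 2, 3 or 5, where 0.317% to 3.15% of genes passed. The S phase median was 0.276 without NPYtet 2 and 0.785 without WT 1. The mitosis median was -0.698 without NPYtet 2 and 0.147 without WT 1, and lay between these without any other library.

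The libraries labelled female include NPYtet 1, whose reads of Xist and Ddx3y went against that label. Within the libraries labelled female (3 NPYtet, 2 WT), 48 of 48 members had a negative genotype log2 fold change, with medians of -0.88 for S phase and -1.305 for mitosis. Within those labelled male (2 NPYtet, 3 WT), 17 of 24 S phase and 24 of 24 mitosis genes were negative, with medians of -0.43 and -0.50. The difference between these effects, male minus female, was positive for all 48 members, with medians of 0.54 and 0.89. For it edgeR called 0 members, with 0 at an unadjusted p under 0.05, where 254 positive and 40 negative genes of 18060 had that p. Plk1 was at -1.33 (SE 0.49) among libraries labelled female and -0.87 (SE 0.51) among those labelled male, and Top2a, the topoisomerase that untangles chromosomes, at -1.799 (SE 0.71) and -0.39 (SE 0.72). The interaction for Top2a was 1.41 (SE 0.997) and did not pass the test.

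Marker lists of the cell types in skin were summed in each library. The 7 basal epidermis genes, the layer that divides, summed to 10567 to 33352 CPM in NPYtet and 7611 to 59628 CPM in WT, with 3 of 7 negative and a median log2 fold change of 0.05. The 5 genes of differentiated epidermis summed to 7494 to 13092 CPM in NPYtet and 5304 to 10789 CPM in WT (4 of 5 negative, median -0.12). The 8 transcription and signalling factors of the hair matrix were all negative, with a median of -2.25. Of them 7 were at an unadjusted p under 0.05, where 2.14% of genes tested were negative at that p. The 6 pigment cell genes, made by melanocytes of growing follicles, summed to 22.4 to 51.8 CPM in NPYtet and 54.99 to 378 CPM in WT, with 6 of 6 negative. B and plasma cell genes summed to 3.34 to 27.8 CPM in NPYtet and 2.43 to 8.699 CPM in WT with 0 of 6 negative, and T cell genes to 25.96 to 83.05 CPM in NPYtet and 16.4 to 64.4 CPM in WT with 1 of 6 negative. Macrophage genes summed to 789.96 to 1277 CPM in NPYtet and 337 to 1250.1 CPM in WT, with 2 of 6 negative, and skeletal muscle genes to 3463 to 7147 CPM in NPYtet and 2813 to 7791 CPM in WT, with 3 of 5 negative. Genes of 3 further lists had positive log2 fold changes throughout, opposite in sign to the cell division genes, though their sums overlapped between the genotypes. Fibroblast genes summed to 10671 to 73326 CPM in NPYtet and 11299.9 to 60403 CPM in WT (0 of 6 negative, median 0.68, 2 at an unadjusted p under 0.05). Fat cell genes summed to 1273 to 4987 CPM in NPYtet and 732 to 2618 CPM in WT (0 of 6 negative, median 0.81, 2 at an unadjusted p under 0.05). Sebaceous gland genes summed to 543 to 1253 CPM in NPYtet and 367 to 1003 CPM in WT (0 of 6 negative, median 0.55, 1 at an unadjusted p under 0.05). Of all 18060 genes tested, 263 were positive at that p. None of these lists had a member called by edgeR, and their part in the values of the cell division genes was not tested.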

How the data were processed

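Whole skin of 5 NPYtet and 5 WT mice was sequenced as paired reads of 75 bases from poly(A) libraries, RIN at least 7.0, per the labels' protocols. The authors deposited whole-number read counts per gene for each library. The submitters' processing notes name bcl2fastq, FastQC 0.11.8, Trimmomatic 0.36, STAR 2.5.2, DESeq2 1.30.1 and mm10. The kit is directional, yet of 463 genes lying wholly under exons of the other strand 20 had a read (4.32%), against 62% of genes free of such overlap, so reads of overlapping genes are uncertain.

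Counts were tested with edgeR 4.0.16 in R 4.3.3 (TMM, filterByExpr with a minimum count of 10 and total of 15, robust quasi-likelihood fit of labelled sex and genotype), with Benjamini-Hochberg adjustment over 18060 genes and a threshold of 0.05. An SE is the log2 value divided by the square root of its F statistic. Scores use log2 CPM with a prior count of 2. Hair and stress scores entered as covariates. Alternatives included DESeq2 1.42.0, limma 3.58.1 voom, other filters, each library left out, and offsets by natural splines with 5 degrees of freedom in transcript GC content and length. The code was tested on simulated data. Values per library are given for the 5 members of each set with the smallest genotype p and the 2 with the highest TPM (12 in all), and for a few members that a result turns on, named after their values were seen. From other lists, up to 3 genes with the smallest genotype p and up to 2 with the smallest p of the hair slope could be named. Members and lists were chosen with earlier results of these data known. The labels give no cultures or litters, and each library is taken as 1 mouse. Numbers 1 to 5 did not pair the libraries. No 2 libraries of the same genotype were alike within sampling noise (chi-square per degree of freedom at least 27.9), and pairs across genotypes were not checked. Of 49671 IDs, 49412 matched GENCODE M21, and the other 259 held 0.0189% of reads.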

Additional observations from a re-analysis of the deposited data

Results flagged for a closer look

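Of 34 groups of 5 libraries checked for a library far from the other 4, 4 were marked, where chance marks about 1 in 20. In WT, WT 3 lay far below the other libraries in log2 CPM of Uhrf1 (4.37) and of Mcm3 (4.39). The hair growth score of WT 3 (-3.14) was likewise far below the rest of WT. In NPYtet, the S phase score of NPYtet 2 (0.61) lay far above the other libraries.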

How the results depend on the processing

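Over 23 alternatives no setting but the fit with no filter on low counts called a member for genotype (1 member), and the medians of both sets stayed negative. Members lower in NPYtet numbered 39 to 48. Pcna turned to 0.00298 with the hair growth score as covariate; the cause was not tested. Genes called for genotype numbered 35 by DESeq2, 2 by limma voom, 409 with no filter, 8 without WT 3 and 0 without NPYtet 1, NPYtet 5 and WT 2. Members called for sex numbered 5 by DESeq2 (12.8% of all genes called), 6 with no filter (7.24%), 2 with GC and length offsets (6.79%), 0 without NPYtet 5 and WT 2 (3.64%), and 0 to 7 without 1 library. Members called for the stress keratin slope numbered 7 by DESeq2 (19.7% of all genes called), 2 with at least 1 CPM in 5 libraries (9.06%), and 0 to 12 without 1 library. They numbered 0 with no filter (1.67%), with a score from summed CPM (0%), with GC and length offsets (0.969%) and without NPYtet 5 and WT 2 (0.0219%). The mitosis median of that slope ran from -0.487 to 0.0288 without 1 library. With no filter 2 members were called for the hair growth slope (1.07% of all genes), whose medians ran from -0.169 to 0.124 for S phase and -0.131 to 0.162 for mitosis without 1 library. The replicate numbers gave correlations of -0.26, 0.30, 0.64, 0.09 and 0.08 between libraries of the same number, and 1 NPYtet library and 0 WT libraries matched best with their own number. With the replicate block 0 members were called, 48 were lower in NPYtet and the medians were -0.747 for S phase and -0.759 for mitosis. GC and length offsets with the replicate block gave -0.688 and -0.823.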
